A study of Mus musculus with 40 samples.

Results

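Foxo1 is described here by the ChIP-seq regions that lie closest to it. A region was taken when Foxo1 was its nearest annotated gene within 200 kb, which held for 137 of 863771 regions over 7 ChIP targets. Among them were 38 H3K27ac, 37 H3K4me1, 15 CTCF, 14 WAPL, 14 RAD21, 13 SMC3 and 6 NIPBL regions, of which all but 4 passed the filter on low counts. Merged where they overlapped, they made 56 loci, of which 23 held a region of 1 target and 30 held histone marks only. The cells were small pre-B cells, the resting stage that rearranges the immunoglobulin light chain, sorted from mouse bone marrow. KO cells came from Brwd1-/- mice and WT cells from wild-type mice, with 2 libraries per target and genotype. Nothing in the labels says that the 2 came from separate animals, so p-values measure only the spread between these samples. ATPneg cells were WT cells cultured for 2 h with 126 nM oligomycin A, an inhibitor of the mitochondrial ATP synthase, and were profiled for NIPBL, RAD21, SMC3 and WAPL. The other cells were not cultured per the labels, so culture and oligomycin cannot be told apart. Strain, age and the kind of Brwd1 allele are not given in the sources used here, and the loss of BRWD1 was not measured.

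FOXO1 is a forkhead transcription factor that carries the output of PI3K signalling. AKT phosphorylates it, 14-3-3 proteins then hold it in the cytoplasm, and when PI3K signalling is low it stays in the nucleus and binds its targets. In pre-B cells it is known for driving Rag1 and Rag2, the recombinase genes, and also Il7r and Syk. Cohesin is a ring that extrudes chromatin loops. SMC3 and RAD21 are subunits of the ring, NIPBL loads it and drives extrusion, WAPL releases it, and CTCF bound to DNA halts it. BRWD1 is a chromatin protein that reads histone tails late in B cell development. H3K4me1 marks enhancers and the flanks of promoters, and H3K27ac marks active enhancers and promoters.

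The promoter is shown because the ATPneg SMC3 peaks described later lie across the start site, with an H3K4me1 region on either side of it. The window runs from 250 bases before to 50 bases after the start (RefSeq, GRCm38.p6, chr3:52268087-52268386, plus strand), with the match to a motif of the B lineage factor EBF1 in capitals.
Foxo1 promoter: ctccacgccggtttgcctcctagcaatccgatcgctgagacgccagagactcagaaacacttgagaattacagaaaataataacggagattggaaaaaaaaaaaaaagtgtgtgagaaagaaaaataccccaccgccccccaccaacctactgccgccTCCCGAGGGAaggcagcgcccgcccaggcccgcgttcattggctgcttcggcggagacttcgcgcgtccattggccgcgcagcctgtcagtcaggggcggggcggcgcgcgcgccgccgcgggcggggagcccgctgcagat
The EBF motif, a palindrome, matched once, at window positions 159 to 168, and 0.904% of 32851 promoters held a match. Both strands were searched for each motif. GGGCGG, the GC box, matched at 5 places (35.7% of promoters held it), of which a pair share a base, and CANNTG, the E box, matched at 1 place (72.3%). TGTTTAC, a core of the FOXO motif, had 0 matches (3.65%), and so did the ETS letters GGAAGT (23.8%) and CCACNAGG, part of the CTCF motif (4.99%). A match describes letters, not a bound site. The GC content of the window was 61.3%, against a median of 52.7% over all promoters.

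Reads over a target's regions numbered 3784506 to 7415143 in KO libraries of SMC3, RAD21 and NIPBL, against 15416715 to 24962590 in their WT libraries, so genotype and depth cannot be told apart for these targets. Over the Foxo1 regions this gave 268 to 795 reads per KO library and 1087 to 1862 per WT library. Depth also went with genotype, by less, for WAPL, H3K27ac and H3K4me1. WAPL had 28011360 and 30496715 reads in KO libraries, against 21488840 and 21978527 in WT libraries. For both histone marks every KO library had fewer reads than every WT library. Some libraries stood apart. Of the RAD21 KO 1 peaks 53.9% lay at a CTCF KO 1 peak, and of the RAD21 KO 2 peaks 1.14%. That share was 1.01% and 0.882% in the RAD21 WT lists, and 90.4% and 92.6% in the SMC3 KO lists. RAD21 KO 2 correlated at r = 0.817 with KO 1, 0.817 with WT 1 and 0.815 with WT 2 across 84996 regions, which are not independent. By these measures RAD21 KO 2 stood as near the WT libraries as KO 1. CTCF WT 2 correlated with CTCF WT 1 at r = 0.628 across 75717 regions, which are not independent, while the CTCF KO libraries correlated at 0.948. It was also the deepest CTCF library, with 17055094 reads, against 3880112 to 5033230 in the other CTCF libraries. The peaks of both lists labelled H3K27ac KO carry the names of H3K4me1 WT, and those of both lists labelled H3K4me1 WT carry the names of H3K27ac KO. If these names also held for the counts, the histone comparisons would set 1 mark against the other, which was not tested. The genotype tag of the histone KO samples reads WT. The peaks of the NIPBL KO 2 list carry the name of NIPBL WT 1, and those of the WT 1 list carry the name of KO 2. These lists hold 2048 peaks for KO 2 and 25979 for WT 1, beside 2333 for NIPBL KO 1 and 55995 for NIPBL WT 2, and NIPBL results are also given for the libraries as labelled. Across 3676 regions that both marks share, which are not independent, the libraries labelled H3K4me1 KO correlated at r = 0.940 to 0.941 with those labelled H3K27ac KO, at 0.899 to 0.900 with H3K27ac WT and at 0.861 to 0.862 with H3K4me1 WT, so by this measure the H3K4me1 WT libraries stood apart from the H3K4me1 KO libraries. Those labelled H3K27ac KO correlated at 0.949 to 0.951 with H3K27ac WT and at 0.771 to 0.776 with H3K4me1 WT. Between H3K4me1 WT and H3K27ac WT the values were 0.821 to 0.822. Whether any labels were exchanged was not tested. Histone results are therefore given for the libraries as labelled, and leaving out the doubtful libraries would leave no comparison. As a check of the cell type, H3K27ac regions of any length stood at 11 of 13 pre-B (none at Vpreb1 and Igll1), 8 of 8 T cell, 5 of 6 erythroid and 7 of 8 myeloid marker genes, and regions of at least 500 bp at 6, 1, 0 and 2 of them. The median summed H3K27ac level was 22.6 CPM in KO, against 22.4 CPM in WT at pre-B markers, and 27.6 CPM in KO, against 27.2 CPM in WT at T cell markers, so H3K27ac sums did not set the pre-B markers above the T cell markers. H3K4me1 regions of at least 500 bp stood at 13 of 13 pre-B, 3 of 8 T cell, 0 of 6 erythroid and 2 of 8 myeloid markers. In bulk samples, fewer cells carrying a protein and less of it per cell cannot be told apart.

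**Figure D1:**
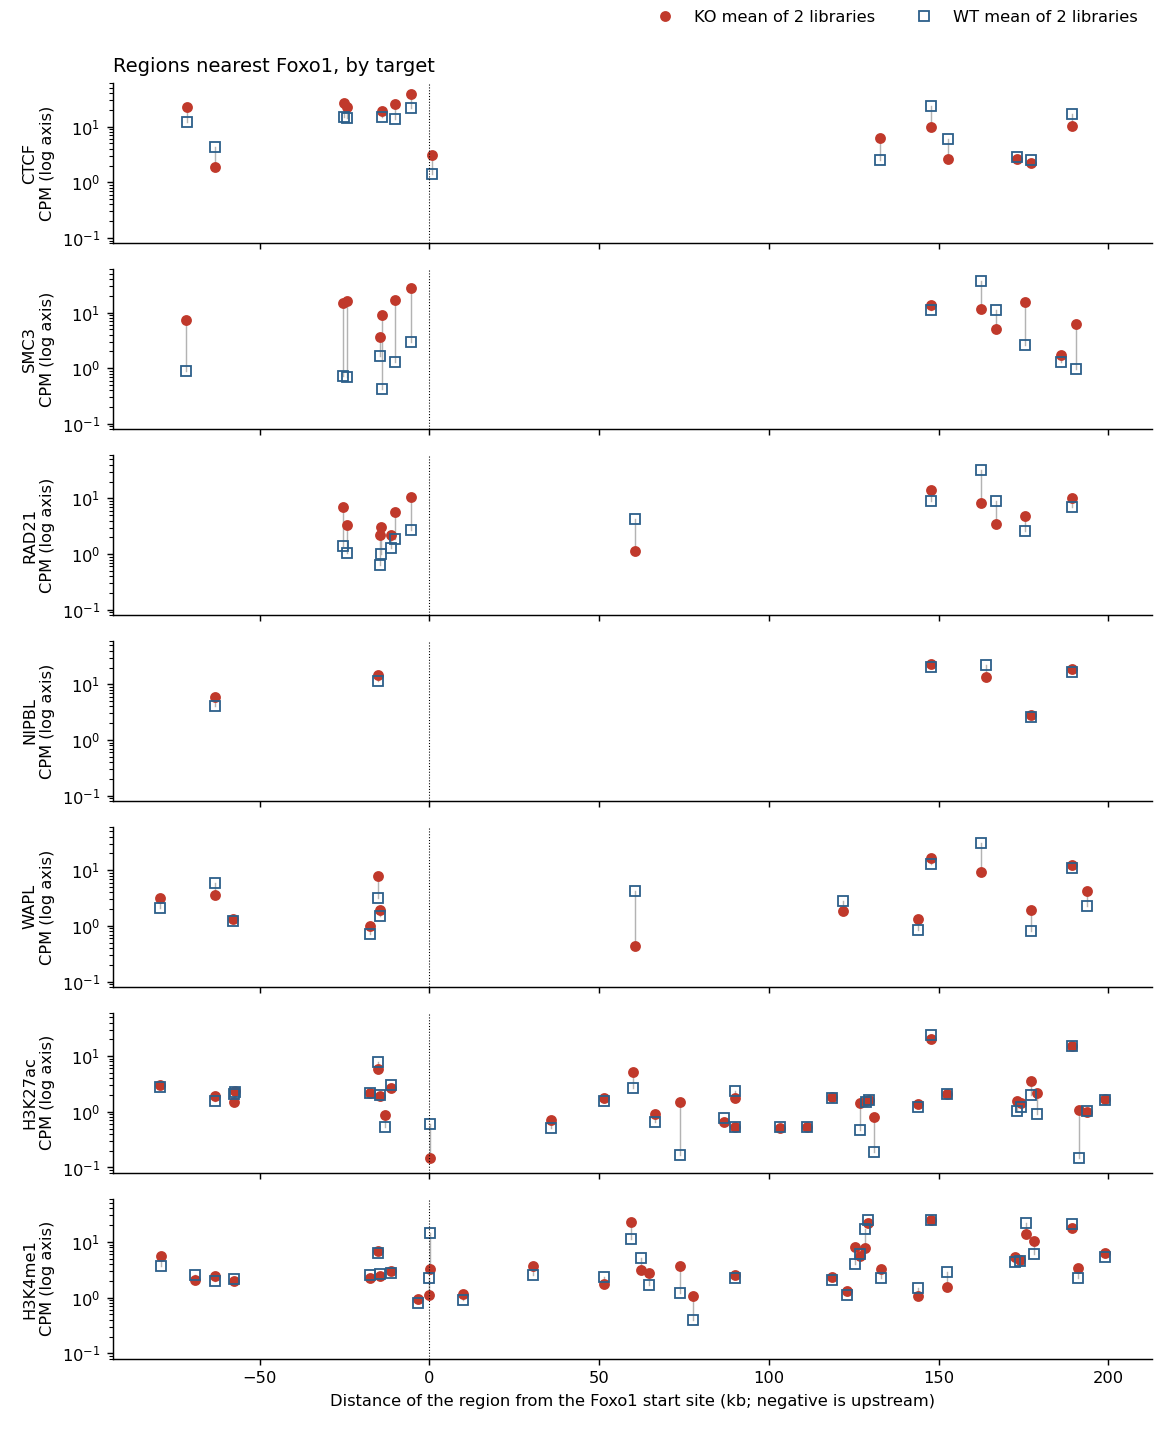
Mean CPM (counts scaled to a common library total over the target's regions, log axis) of each tested region nearest Foxo1, against its distance from the start site in kb, with 1 panel per target. KO means (2 libraries) are filled circles and WT means (2 libraries) open squares. SMC3 is higher in KO at the CTCF sites upstream, and NIPBL, RAD21, SMC3 and WAPL are lower in KO in the wide regions from +162.5 kb.

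The widest cohesin regions near Foxo1 lay beyond the gene, from +162.5 kb (mm9 chr3:52234728-52240892), and all 4 cohesin proteins were lower there in KO cells. The locus held regions of NIPBL, RAD21, SMC3 and WAPL and none of CTCF, H3K27ac or H3K4me1. WAPL, which takes cohesin off DNA, had 9.16 and 9.79 CPM in KO cells, against 31.5 and 30.9 CPM in WT cells, over 1 region of 6048 bp (chr3:52234757-52240804). SMC3, a subunit of the ring, split into a long and a short region. The long SMC3 region (4393 bp, chr3:52234728-52239120) had 8.35 and 14.5 CPM in KO cells, against 33.9 and 39.4 CPM in WT cells. The short SMC3 region at +167.0 kb had 6.20 and 4.07 CPM in KO cells, against 10.7 and 11.9 CPM in WT cells. In each of these 3 regions every KO library lay below every WT library.

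RAD21, the subunit that closes the ring, showed the same order in both of its regions there. The long RAD21 region (4380 bp, chr3:52234753-52239132) had 6.44 and 10.3 CPM in KO cells, against 33.3 and 31.3 CPM in WT cells. The short RAD21 region at +167.0 kb had 2.82 and 4.17 CPM in KO cells, against 9.06 and 9.15 CPM in WT cells. NIPBL, the loader, had 13.4 and 13.2 CPM in KO cells, against 22.5 and 22.4 CPM in WT cells (chr3:52236201-52240778), the smallest of these differences as a ratio. KO 1 and WT 2, the NIPBL libraries whose peak names match their labels, lay in the same order. Input reads per kb over the 6 regions ran from 11.1 to 14.2 in KO, against 9.18 to 12.2 in WT, so the input was not lower in KO.

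edgeR's quasi-likelihood test, with Benjamini-Hochberg adjustment over all regions of a target, called all 6 of these regions lower in KO. At this locus NIPBL, SMC3 and WAPL had peaks in 2 WT lists and 0 KO lists, and RAD21 in 2 WT lists and 1 KO list. Of SMC3 peaks, 30.2% and 21.8% in WT lists were 1 kb or longer, against 0.128% and 0.187% in KO lists. Regions that enter through WT peaks favour a lower KO count, so these calls were partly fixed by how the regions were found. The log2 fold change of WAPL was −1.72 ± 0.11 (SE, adjusted p = 0.00142, edgeR) and that of the long SMC3 region −1.68 ± 0.27 (adjusted p = 0.00468, edgeR), and both were called lower under all 10 alternatives. The short SMC3 region differed by −1.14 ± 0.27 (adjusted p = 0.0202, edgeR) and was called under 7 of 10 alternatives, losing its call without SMC3 KO 2 (adjusted p = 0.120), with background scaling (0.0917) and with input-subtracted counts (0.155). The long RAD21 region differed by −1.95 ± 0.31 (adjusted p = 0.0433, edgeR), the short one by −1.38 ± 0.29 (adjusted p = 0.0443, edgeR) and NIPBL by −0.75 ± 0.16 (adjusted p = 0.0477, edgeR). These 3 calls were less firm, holding under 4, 2 and 3 of 10 alternatives, with the same sign in all. The adjusted p of the long RAD21 region was 0.334 without WT 1, 0.360 without WT 2 and 0.0879 with a replicate block. Its log2 fold change was −1.08 without KO 1. The log2 fold change of the short RAD21 region was −0.56 without KO 1 (adjusted p = 0.0991). NIPBL lost its call without any 1 of its 4 libraries (0.200 to 0.251). Of all regions of at least 1 kb, 98.8% were called lower in KO for WAPL, 80.2% for RAD21 and 77.3% for SMC3, but 3.81% for NIPBL, so for the first 3 targets a lower call at a wide region was the usual outcome.

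**Figure D2:**
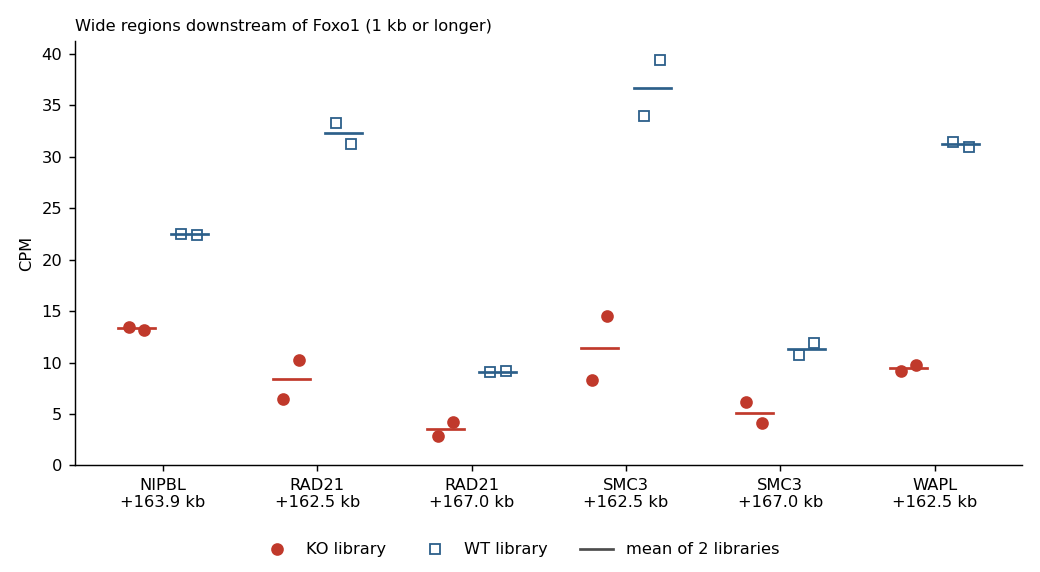
CPM in each library for the 6 regions of at least 1 kb downstream of Foxo1, labelled by target and distance from the start site. KO libraries are filled circles left of the WT libraries (open squares), and bars are means of 2 libraries. In all 6 regions both KO libraries lie below both WT libraries.

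Upstream of Foxo1 stood 6 sites with a CTCF peak in all 4 CTCF lists, at −71.4, −25.0, −24.3, −14.0, −10.2 and −5.4 kb from the start, and SMC3 was several-fold higher there in KO cells. At the site nearest the gene (SMC3 region chr3:52066262-52066899) SMC3 had 30.3 and 24.7 CPM in KO cells, against 3.20 and 2.69 CPM in WT cells. At −24.3 kb SMC3 had 16.9 and 14.9 CPM in KO cells, against 0.849 and 0.563 CPM in WT cells. At −71.4 kb, the farthest site, SMC3 had 6.91 and 7.69 CPM in KO cells, against 0.914 and 0.875 CPM in WT cells. At each site the KO libraries lay far above the WT libraries, with ratios of the means between 8.16 and 22.6.

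SMC3 was called higher at all 6 sites. Of the 7 SMC3 regions there, 6 had a peak in both KO lists and 0 in both WT lists, so a higher KO count was favoured by how these regions entered. The log2 fold change was 3.01 ± 0.28 at −71.4 kb (SE, adjusted p = 7.55e-04, edgeR), the lowest, and 4.48 ± 0.29 at −24.3 kb (adjusted p = 5.71e-04, edgeR), the highest, and all 6 calls held under all 10 alternatives. A further short SMC3 region at −14.4 kb, on the edge of a CTCF site, had 3.81 and 3.39 CPM in KO cells, against 2.22 and 1.13 CPM in WT cells and was not called (log2 fold change 1.104 ± 0.43, adjusted p = 0.0982, edgeR). Over all members SMC3 had 8 regions higher and 2 lower of 13 tested, where 40.2% of all SMC3 regions were called in either direction (22.1% higher and 18.1% lower). Of all SMC3 calls 55.0% were higher, beside 72.5% with background scaling. The KO and WT libraries did not overlap at any of the 13, where 71.6% of all SMC3 regions did not. Of SMC3 regions genome-wide with a CTCF peak in KO 1, KO 2 and WT 1, 98.4% were called higher in KO, so the 6 Foxo1 sites showed what most such sites did.

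CTCF itself was not called at any of the 6 sites. At −5.4 kb CTCF had 40.2 and 36.5 CPM in KO cells, against 31.6 and 10.99 CPM in WT cells. At −25.0 kb it had 28.7 and 25.2 CPM in KO cells, against 22.7 and 7.35 CPM in WT cells. WT 2, the library that stands apart, gave the low value at each of the 6 sites. The log2 fold changes ran from 0.37 to 0.94 with adjusted p from 0.353 to 0.685 (edgeR). Of 14 CTCF regions tested at Foxo1, 0 were called by edgeR, 0 by DESeq2 and 0 had an unadjusted p under 0.05, where 0.0396% of all CTCF regions were called (0.00792% higher and 0.0317% lower) and 0.0111% of those at CTCF peaks were higher. The count moved when CTCF WT 1 or WT 2 was left out, which leaves 1 WT library, and those fits have no share over all regions beside them. At −5.4 kb the CTCF log2 fold change ran from 0.29 to 1.85 when 1 library was left out. In these fits the lone library is assumed to vary like the others.

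RAD21 at these sites depended on the library. At −5.4 kb RAD21 had 19.3 and 1.95 CPM in KO cells, against 3.21 and 2.28 CPM in WT cells. At −10.2 kb it had 11.1 and 0.278 CPM in KO cells, against 1.96 and 1.83 CPM in WT cells. At −25.0 kb it had 12.8 and 1.25 CPM in KO cells, against 1.38 and 1.38 CPM in WT cells. KO 1 was high at each of these sites and KO 2 lay below the WT libraries. At −5.4 kb the log2 fold change was 1.95 ± 1.03 (SE, adjusted p = 0.174, edgeR), 2.80 without KO 2 and 0.07 without KO 1. The short region at −14.4 kb was an exception to this order, with 1.48 and 2.92 CPM in KO cells, against 0.751 and 0.536 CPM in WT cells. Of 13 RAD21 regions tested, 0 were higher and 2 lower in KO, where 23.4% of all RAD21 regions were called in either direction (2.3% higher and 21.1% lower), and 0.77% of those at CTCF peaks were higher. DESeq2 called 2 higher and 1 lower and gave 3 no adjusted p, and 5 had an unadjusted p under 0.05. Over all RAD21 regions 9.84% of the calls were higher with edgeR, 74.8% with DESeq2, and background scaling gave 0 calls, so the direction of RAD21 calls depended on the scaling. The edgeR count moved when 1 RAD21 library was left out, which leaves 1 in a group, and those fits have no share over all regions beside them. At −71.4 kb, where RAD21 was too low for the test, it had 22 and 4 reads in KO cells and 10 and 10 reads in WT cells. NIPBL had no region at the 6 sites, and WAPL had 1, at −14.4 kb, with 1.83 and 1.98 CPM in KO cells, against 1.89 and 1.09 CPM in WT cells.

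**Figure D3:**
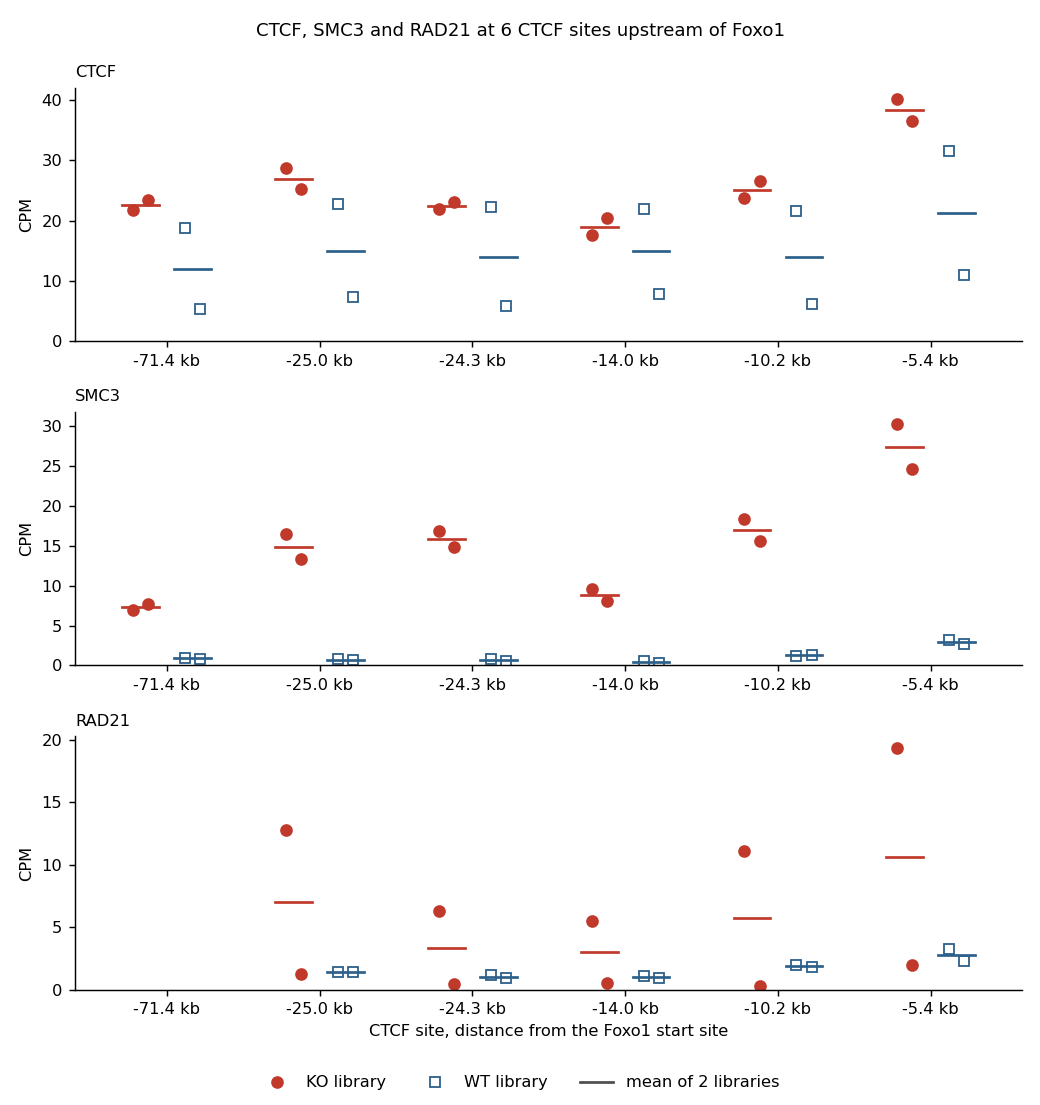
CPM in each library at the 6 CTCF sites upstream of Foxo1, for CTCF, SMC3 and RAD21, with KO libraries (filled circles) left of WT libraries (open squares) and bars at the mean of 2 libraries. Where 2 regions of a target overlap a site, the one with the higher KO mean is drawn, and RAD21 at −71.4 kb was too low for the test and has no points. SMC3 separates KO from WT at each site, CTCF WT 2 lies low, and 1 of the 2 RAD21 KO libraries is high at most sites.

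The share of a library's own Foxo1 reads at each place needs no scaling between libraries. For SMC3 the 6 CTCF sites held 66.9% and 60.5% in KO libraries, against 13.7% and 10.2% in WT libraries. The wide downstream regions held 9.52% and 12.8% in KO libraries, against 62.9% and 68.8% in WT libraries. The larger part of the SMC3 reads was thus upstream in KO and downstream in WT. Most SMC3 regions at the CTCF sites had peaks in KO lists, and the wide locus had SMC3 peaks in WT lists only. This split was therefore favoured by how the regions entered. For RAD21 the CTCF sites held 55.7% and 15.7% in KO libraries, against 12.9% and 11.6% in WT libraries, and the wide regions held 8.68% and 28.6% in KO libraries, against 54.5% and 56.7% in WT libraries. RAD21 KO 2 lay near the WT libraries at the CTCF sites and between KO 1 and WT in the wide regions. For WAPL the wide region held 13.6% and 14.7% in KO libraries, against 39.6% and 37.5% in WT libraries. For NIPBL it held 17.03% and 17.2% in KO libraries, against 29.4% and 28.2% in WT libraries. RAD21 regions at the CTCF sites had KO but no WT peaks, and the wide locus had WAPL and NIPBL peaks in WT but not KO lists. These shares were thus favoured in the same way. The widest exact (Clopper-Pearson) 95% interval of these shares spanned 9.53 percentage points, which covers counting error only.

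Downstream, SMC3 was also higher in KO at a pair of regions with no CTCF peak in any list. At +175.5 kb (chr3:52247769-52248156) SMC3 had 15.7 and 15.4 CPM in KO cells, against 2.87 and 2.25 CPM in WT cells (log2 fold change 2.60 ± 0.23, adjusted p = 6.80e-04, edgeR). RAD21 there had 9.26 and 0.556 CPM in KO cells, against 2.30 and 2.90 CPM in WT cells, with KO 1 again the high library, and was not called. At +190.4 kb SMC3 had 5.01 and 7.69 CPM in KO cells, against 1.04 and 0.875 CPM in WT cells (log2 fold change 2.71 ± 0.36, adjusted p = 0.00203, edgeR). Both SMC3 calls held under all 10 alternatives, and a peak stood in 1 ATPneg list and 1 KO list at each, against 0 WT lists. A higher KO count was thus favoured by how these regions entered.

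Inside the gene, a site at +60 kb had less WAPL and more of both histone marks in KO. WAPL had 0.279 and 0.603 CPM in KO cells, against 4.74 and 3.86 CPM in WT cells (chr3:52132711-52133291). Its log2 fold change was −3.29 ± 0.38 (SE, adjusted p = 0.00406, edgeR), and without WAPL KO 1 it was −2.82 (adjusted p = 0.0548), the 1 alternative of 10 that ended the call. RAD21 had 1.21 and 1.11 CPM in KO cells, against 6.22 and 2.28 CPM in WT cells and was not called (log2 fold change −1.87 ± 0.62, adjusted p = 0.0799, edgeR). SMC3 and NIPBL had no region there. WAPL and RAD21 each had a peak in 1 WT list and 0 KO lists, so a lower KO count was favoured by how these regions entered. Over all members WAPL had 3 regions higher and 2 lower of 14 tested, where 40.7% of all WAPL regions were called (13.1% higher and 27.6% lower). Of all WAPL calls 32.1% were higher, beside 46.6% with library totals and 65.9% with background scaling.

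H3K4me1 over the same site (chr3:52131543-52133963) had 22.2 and 23.1 CPM in KO libraries, against 12.7 and 10.1 CPM in WT libraries. H3K27ac within it (chr3:52132079-52133441) had 5.22 and 5.10 CPM in KO libraries, against 2.90 and 2.53 CPM in WT libraries. The log2 fold changes were 1.01 ± 0.08 for H3K4me1 (adjusted p = 7.45e-31, edgeR) and 0.93 ± 0.15 for H3K27ac (adjusted p = 1.99e-07, edgeR), and both calls held under all 10 alternatives. Further into the gene, at +73.7 kb, H3K4me1 had 4.07 and 3.49 CPM in KO libraries, against 1.03 and 1.42 CPM in WT libraries. H3K27ac at +73.7 kb had 1.84 and 1.15 CPM in KO libraries, against 0.267 and 0.0734 CPM in WT libraries, and both marks were called higher there. At +73.7 kb H3K27ac had a peak in 1 KO list and H3K4me1 in 2, against 0 WT lists, so a higher KO count was favoured by how these regions entered.

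At the start site the order was the opposite. H3K4me1 (chr3:52072296-52074121) had 3.52 and 3.08 CPM in KO libraries, against 15.0 and 13.6 CPM in WT libraries. The log2 fold change was −2.11 ± 0.13 (SE, adjusted p = 2.69e-54, edgeR), and the call held under all 10 alternatives. Peaks of the histone marks here stood in WT lists alone, 2 for H3K4me1 and 1 for H3K27ac. A lower KO count was thus favoured by how these regions entered. H3K27ac at +0.2 kb was low throughout, with 0.167 and 0.133 CPM in KO libraries, against 0.496 and 0.698 CPM in WT libraries (log2 fold change −1.96 ± 0.58, adjusted p = 0.00903, edgeR), a call that held under 5 of 10 alternatives and was lost without KO 1, KO 2 or WT 2. CTCF at +0.9 kb was not called, with 2.05 and 4.23 CPM in KO cells, against 2.35 and 0.447 CPM in WT cells. Summed H3K4me1 levels at pre-B marker genes moved with genotype too, with a median of 58.2 CPM (8.48 to 219) in KO libraries, against 102 CPM (12.1 to 257) in WT libraries, and 0 of 13 were called higher and 10 lower. At T cell markers 3 of 8 were called higher and 0 lower (1 and 0 with DESeq2). Erythroid markers had 1 of 5 higher and 0 lower, and myeloid markers 2 of 7 higher and 0 lower. Over all genes 18% of H3K4me1 sums were called higher and 23.3% lower. The part of the library names, of the correlations between the histone libraries and of the marker levels in the histone differences was not tested.

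Of H3K4me1 regions 9 were higher and 8 lower in KO of 37 tested, where 16.4% of all H3K4me1 regions were called (6.44% higher and 9.98% lower). Of H3K27ac regions 7 were higher and 3 lower of 36 tested, where 16.5% of all were called (5.9% higher and 10.6% lower). The split of calls over all regions moved with scaling. With library totals 54.2% of H3K4me1 calls and 58.1% of H3K27ac calls were higher, beside 39.2% and 35.8% with TMM scaling, and with background scaling 26.6% and 12.6%. Beyond the gene, H3K4me1 at +128.2 kb had 7.60 and 7.79 CPM in KO libraries, against 16.98 and 17.4 CPM in WT libraries, called lower. The neighbouring region at +125.4 kb had 8.32 and 7.96 CPM in KO libraries, against 3.43 and 4.46 CPM in WT libraries, called higher. At +175.9 kb H3K4me1 had 14.1 and 13.7 CPM in KO libraries, against 21.0 and 22.3 CPM in WT libraries, called lower. These 3 calls held under all 10 alternatives.

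**Figure D4:**
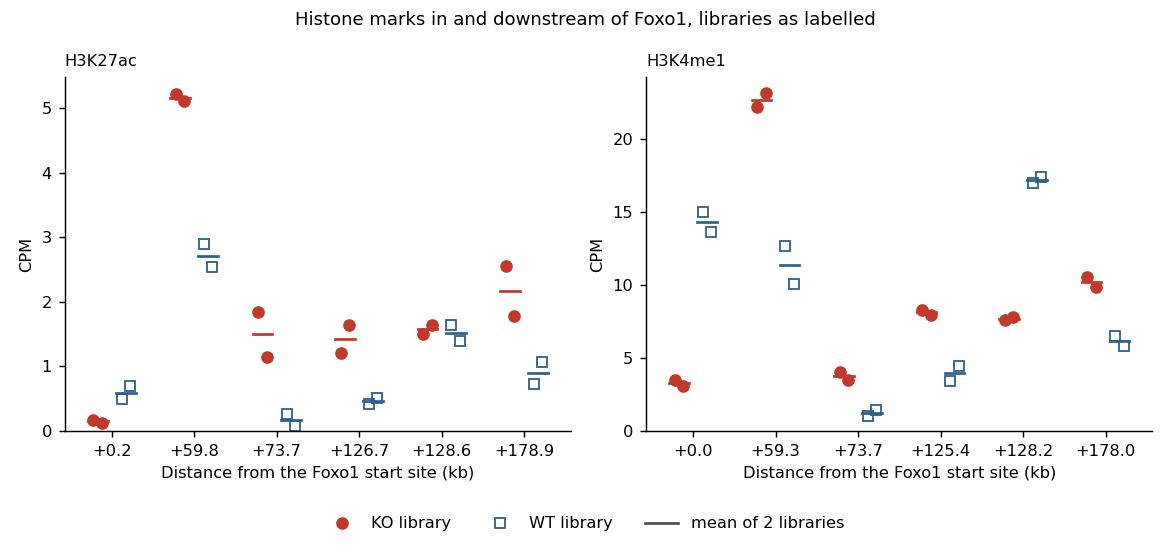
CPM in each library labelled H3K27ac and H3K4me1 at regions near the start site, in the gene body and downstream, by distance in kb. KO libraries are filled circles left of WT libraries (open squares), and bars are means of 2 libraries. H3K4me1 lies lower in KO at the start site and at +128.2 kb, and both marks lie higher in KO near +60 kb and at +73.7 kb.

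The 3 WAPL regions called higher were short and lay at −15.2, +177.3 and +193.6 kb, where the input was dense. Each lay at a locus with a WAPL peak in 1 KO list and 0 WT lists, which favours a higher KO count. Input reads per kb were 389 in KO, against 233 in WT at the first, 194 in KO, against 155 in WT at the second and 339 in KO, against 281 in WT at the third, and in the wide region 13.2 in KO, against 10.9 in WT. At −15.2 kb WAPL had 8.45 and 7.24 CPM in KO cells, against 2.71 and 3.51 CPM in WT cells (log2 fold change 1.33 ± 0.22, adjusted p = 0.00951, edgeR). Without KO 1 or KO 2 the adjusted p was 0.0996 and 0.0785, and the other 2 calls were also lost without either KO library (0.0972 to 0.201). With input-subtracted counts all 3 calls were lost (adjusted p = 0.121, 0.0723 and 0.187), with the same sign, and the input was denser in KO at all 3. At +147.9 kb, where every target had a short region, the input held 525 to 659 reads per kb in WT over the regions of the 4 cohesin proteins, and none of the 4 was called. NIPBL there had 24.9 and 20.9 CPM in KO cells, against 20.2 and 21.4 CPM in WT cells, and WAPL had 15.7 and 17.2 CPM in KO cells, against 13.2 and 13.2 CPM in WT cells. Of 6 NIPBL regions tested 1 was called in all, the wide one, where 1.63% of all NIPBL regions were called (0.995% higher and 0.63% lower). Of all NIPBL calls 61.2% were higher, beside 6.88% with library totals and 86.6% with background scaling.

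ATPneg libraries came as peak lists without counts, so presence of a peak (overlap of at least 1 bp) is given, with no test, and both ATPneg and KO are set beside the same WT lists. All 7 SMC3 regions at the 6 CTCF sites had a peak in both ATPneg lists, 6 had one in both KO lists and 0 in both WT lists. RAD21 had a peak in both ATPneg lists at 3 of its 7 regions there and in both KO lists at 1, and at all 7 in at least 1 ATPneg and 1 KO list, against 0 in any WT list. At the wide locus no ATPneg list of the 4 proteins held a peak and in KO cells RAD21 KO 2 alone listed one, while both WT lists of each protein did. At the +60 kb site no ATPneg or KO list of the 4 proteins held a peak, and RAD21 and WAPL each had one in 1 WT list.

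Over all members, SMC3 peaks in both lists stood at 8 of 13 regions in ATPneg, 6 in KO and 3 in WT, beside 20.2%, 11.2% and 31.9% of all SMC3 regions. RAD21 had 3 of 14 in ATPneg, 1 in KO and 2 in WT, beside 8.02%, 7.82% and 33.3% of all RAD21 regions. WAPL had 1 of 14 in ATPneg, 3 in KO and 5 in WT, beside 1.64%, 35.4% and 41.6%. NIPBL had 1 of 6 in ATPneg, 0 in KO and 3 in WT, beside 12.9%, 1.81% and 33.1%. The NIPBL and WAPL regions with peaks in both ATPneg lists were those at +147.9 kb, where the input was dense. The NIPBL KO and WT counts include the 2 lists with each other's peak names. The lists of these 4 proteins ran from 2048 peaks in NIPBL KO 2 to 81317 in WAPL WT 2, and the part of list length in these counts was not tested.

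**Figure D5:**
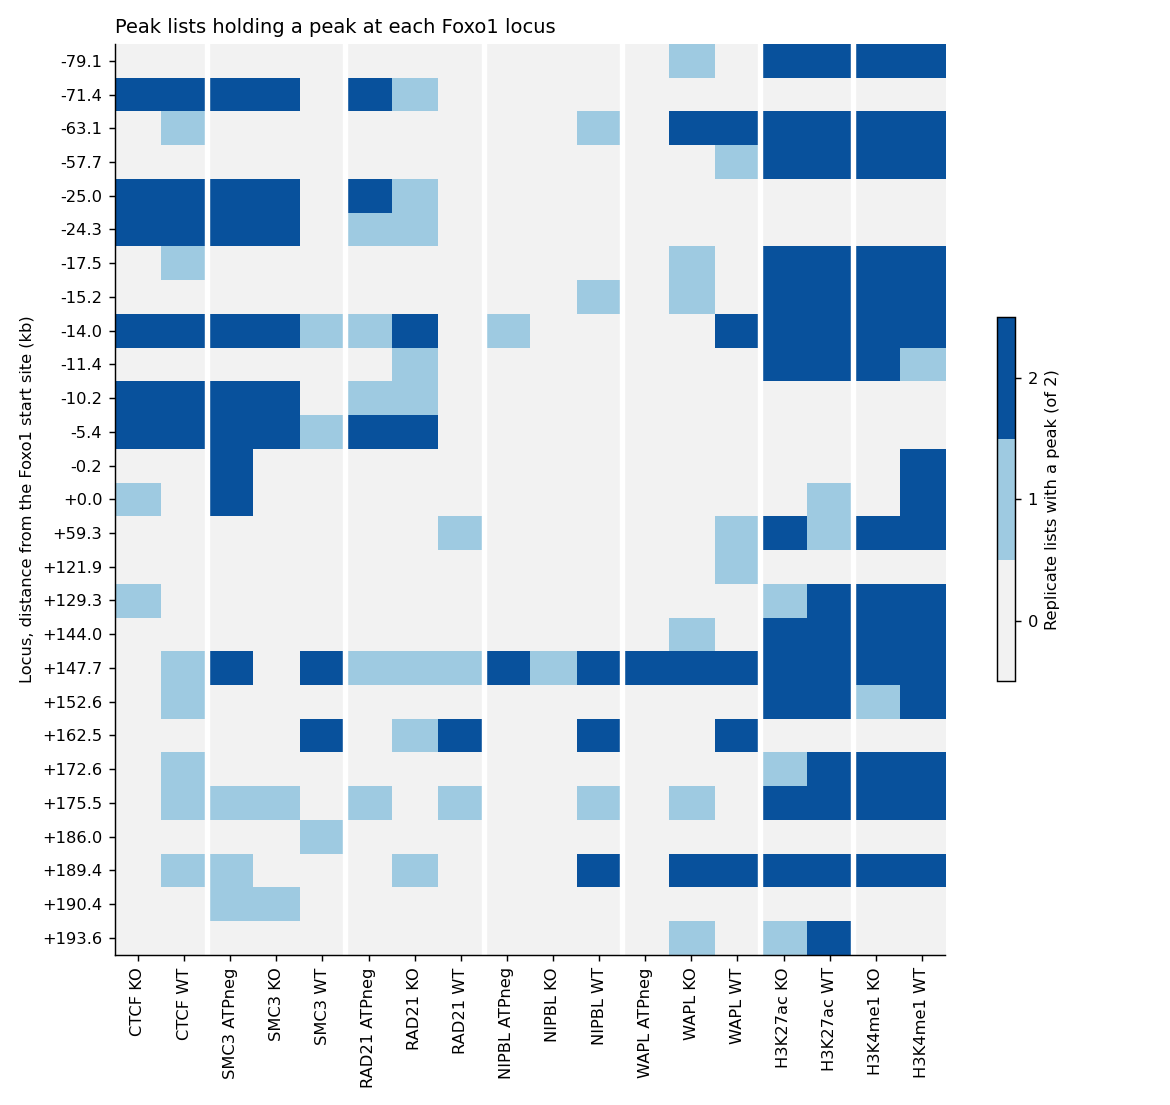
Number of replicate peak lists (0, 1 or 2, by shade) with a peak at each Foxo1 locus that has a peak of CTCF or a cohesin protein, by distance from the start site in kb. Each target's lists stand side by side, with ATPneg where present, KO and WT. SMC3 ATPneg and SMC3 KO are filled at the 6 upstream CTCF sites, and the +162.5 kb locus is filled in the WT columns of SMC3, RAD21, NIPBL and WAPL.

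Counts were also summed over all regions of Foxo1 for each target. SMC3 summed to 163 and 155 CPM in KO cells, against 101 and 130.4 CPM in WT cells (log2 fold change 0.46 ± 0.19, adjusted p = 0.0770, edgeR), where 34.5% of genes were called higher and 29.8% lower. This sum depended on the setting. It was called higher with library totals (1.101, adjusted p = 0.00337), DESeq2 (0.46, adjusted p = 0.0435), input-subtracted counts (0.82, adjusted p = 0.0144) and within 100 kb (2.69, adjusted p = 0.00121), was −0.28 with background scaling, and was called without WT 1 (0.25, adjusted p = 0.00537) or WT 2 (0.64, adjusted p = 7.22e-09). WAPL summed to 86.2 and 86.3 CPM in KO cells, against 112 and 116 CPM in WT cells and was called lower (log2 fold change −0.40 ± 0.06, adjusted p = 0.00509, edgeR), where 10.5% of genes were called higher and 22.2% lower. The wide region held 13.6% and 14.7% of these reads in KO libraries, against 39.6% and 37.5% in WT libraries. It had WAPL peaks in 2 WT lists and 0 KO lists, so a lower sum was favoured by how that region entered. Without KO 1 the adjusted p of the WAPL sum was 0.0861 and without KO 2 0.0784, and with library totals the fold change was −0.09.

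NIPBL summed to 109 and 106 CPM in KO cells, against 109 and 114 CPM in WT cells (log2 fold change −0.06 ± 0.08, adjusted p = 0.729, edgeR). RAD21 summed to 108 and 73.8 CPM in KO cells, against 111 and 105 CPM in WT cells (−0.25 ± 0.31, adjusted p = 0.588, edgeR), and without KO 1 the fold change was −0.55 (adjusted p = 0.00965). CTCF summed to 218 and 205 CPM in KO cells, against 221 and 176.9 CPM in WT cells (0.09 ± 0.35, adjusted p = 0.851, edgeR). None of these 3 sums was called, where 4.63% of genes were called higher and 6.49% lower for NIPBL and 0% in either direction for RAD21 and CTCF. H3K27ac summed to 128.4 and 126 CPM in KO libraries, against 114 and 115 CPM in WT libraries (0.15 ± 0.03, adjusted p = 9.54e-05, edgeR), called higher, where 16.3% of genes were called higher and 20.7% lower. With background scaling its fold change was 0.03, not called. H3K4me1 summed to 276 and 271 CPM in KO libraries, against 274 and 269 CPM in WT libraries (0.01 ± 0.03, adjusted p = 0.814, edgeR), where 18% of genes were called higher and 23.3% lower.

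The relatives of Foxo1 were compared on summed counts. These sums, and those of the lists below, add regions that entered through peaks of either genotype, which can favour a direction. Of all SMC3 regions at CTCF peaks 98.4% were called higher in KO. How the regions of each gene entered was not tested, so a call here is not particular to these genes. Foxo6, a forkhead paralog, had 33.3 and 32.1 CPM in KO cells, against 2.60 and 1.97 CPM in WT cells for SMC3 (log2 fold change 3.83 ± 0.28, adjusted p = 4.65e-04, edgeR). Foxo3, another paralog, had 71.0 and 72.9 CPM in KO cells, against 36.8 and 44.7 CPM in WT cells for SMC3 (0.82 ± 0.20, adjusted p = 0.0106, edgeR). Of the 3 paralogs tested 2 were higher for SMC3, and Foxo4 was not called (lower with background scaling, adjusted p = 0.0170). With background scaling the Foxo3 call was lost (0.09, adjusted p = 0.847). For WAPL Foxo6 was called higher, with 21.9 and 25.03 CPM in KO cells, against 17.8 and 14.6 CPM in WT cells (adjusted p = 0.0469, edgeR), a call lost with background scaling (0.0593) and DESeq2 (0.0692).

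PI3K and AKT act upstream of FOXO1, and of 21 genes of that list tested for SMC3 9 were higher and 3 lower in KO, with a median log2 fold change of −0.07 beside −0.11 over all genes. Over all genes 34.5% were called higher and 29.8% lower for SMC3, 10.5% and 22.2% for WAPL and 4.63% and 6.49% for NIPBL. At pre-B marker genes 7 of 8 SMC3 sums were called higher and 0 lower. Pik3cg, a PI3K catalytic subunit gene, had 62.3 and 61.3 CPM in KO cells, against 6.77 and 5.80 CPM in WT cells for SMC3. Akt1, the kinase gene, had 15.8 and 19.3 CPM in KO cells, against 2.60 and 3.39 CPM in WT cells, and both were called higher. Cofactors and modifiers of FOXO1 had 8 higher and 1 lower of 11 tested for SMC3 (median 1.90). Among them Sirt1, a deacetylase gene, had 13.0 and 14.5 CPM in KO cells, against 1.67 and 0.985 CPM in WT cells.

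Regulators of Foxo1 had 3 higher and 4 lower of 10 tested for SMC3 (median −0.26). Tcf3, which encodes the E2A proteins, had 22.1 and 15.7 CPM in KO cells, against 1.85 and 2.63 CPM in WT cells for SMC3. Ebf1, the gene of the B lineage factor, had 65.9 and 53.4 CPM in KO cells, against 25.02 and 32.9 CPM in WT cells. Mef2c, a MADS box factor gene, had 45.0 and 45.4 CPM in KO cells, against 88.7 and 130.4 CPM in WT cells. Tcf3 and Ebf1 were called higher and Mef2c lower, but the Ebf1 call was lost with background scaling (adjusted p = 0.491) and the Mef2c call with library totals (0.0614). FOXO1 target genes had 12 higher and 4 lower of 21 tested for SMC3 (median 0.86). Syk, the kinase gene of the pre-B receptor, had 36.1 and 22.9 CPM in KO cells, against 4.08 and 2.52 CPM in WT cells for SMC3 and was called higher. Sesn1, a stress response gene, was called lower for SMC3, NIPBL and WAPL, with 23.3 and 26.1 CPM in KO cells, against 45.6 and 43.5 CPM in WT cells for WAPL. Its SMC3 call was lost with library totals (adjusted p = 0.349) and its NIPBL call with DESeq2 (0.154). Rag2 was called lower for WAPL, with 82.0 and 86.4 CPM in KO cells, against 112 and 117 CPM in WT cells, a call lost with library totals (adjusted p = 0.159). Il7r was not called for SMC3, NIPBL or WAPL, though background scaling called it lower for SMC3 and library totals for NIPBL.

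For WAPL 4 genes were higher and 2 lower of 19 in the PI3K and AKT list, 2 and 1 of 10 among cofactors, 1 and 3 of 12 among regulators and 3 and 4 of 22 among targets. For NIPBL the counts were 2 and 0 of 15, 1 and 1 of 6, 0 and 2 of 11, and 1 and 1 of 20. For CTCF and RAD21 no gene sum was called in these lists or over all genes. With other settings RAD21 gene sums were called, 486 higher and 1520 lower over all genes with library totals and 236 higher and 2323 lower with DESeq2. Among FOXO1 targets 3 were then higher and 0 lower for RAD21 with library totals, and 0 higher and 1 lower with DESeq2. The WAPL counts turned with library totals, to 12 targets higher and 2 lower and 5 regulators higher and 2 lower, where the median over all genes was 0.33. The NIPBL counts turned too, with 1 target higher and 4 lower with library totals. The SMC3 counts moved with scaling. With library totals 15 FOXO1 targets were higher and 1 lower, and with background scaling 5 were higher and 6 lower, where the median over all genes was 0.53 and −0.83. The PI3K and AKT list had 10 higher and 1 lower with library totals and 6 higher and 10 lower with background scaling.

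Across the 28 libraries with counts, the genes whose summed counts varied most like those of Foxo1 were Smim13 (r = 0.970), Nlrc5 (0.962), Rassf8 (0.962), Syt5 (0.952) and Kdm8 (0.950), among 10106 genes tested for all 7 targets. Each value was a log2 CPM centred on its target, and all genes share these libraries and their depths, so r is a description. The SMC3 log2 fold change was 1.11 for Smim13, 2.16 for Nlrc5 and 2.56 for Rassf8, beside 0.46 for Foxo1. For WAPL it was −0.35, 0.05 and −0.49, beside −0.40 for Foxo1.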

How the data were processed

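ChIP-seq of 7 targets and its inputs were measured in small pre-B cells (40 samples, 36 of them ChIP). Per the submitters' processing notes, edgeR, featureCounts, bedtools, MACS2, Picard and BWA are named with the mm9 build, with roles and versions not given in the sources used here. The deposited tables hold read counts per merged region, made by the authors, and the deposited input-subtracted signal tables give each region's nearest gene. The deposited input-subtracted counts were made by the authors and never fall below 0. The deposited peak lists, 1 per library, give a score per peak on a scale the files do not name. An input column in each of the 2 histone tables carries no genotype matching an input title and was not used (2 columns).

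Regions nearest Foxo1 within 200 kb were taken from the signal tables and joined to counts by region. KO was compared with WT per target with edgeR 4.0.16 in R 4.3.3 (TMM scaling, expression filter, quasi-likelihood test, Benjamini-Hochberg adjustment over all regions, threshold 0.05). Counts were also summed per gene. DESeq2 1.42.0, library totals, background scaling, no filter, input-subtracted counts, a replicate block, regions within 100 kb and leaving out each library were alternatives. The test was checked on simulated counts. Regions named were, per target, the 2 highest, the one nearest the start and the 2 with the lowest adjusted p. Other named regions were chosen after their values were seen, for lying at the wide locus, the CTCF sites or the +60 kb site. Genes named from the lists were likewise chosen after their values were seen. Members and lists were chosen with earlier results of these data known.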

Additional observations from a re-analysis of the deposited data

Results flagged for a closer look

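SMC3 peaks at the Foxo1 start site appeared in both ATPneg lists and in no KO or WT list, outside the regions that the SMC3 counts cover. The peak of ATPneg replicate 1 (mm9 chr3:52071831-52072811) had a score of 6.75, and that of replicate 2 (mm9 chr3:52071792-52072451) had 7.98, on the authors' scale. Neither enters a comparison, since no counts accompany them.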

How the results depend on the processing

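The 6 SMC3 calls at the CTCF sites and the calls of WAPL and of the long SMC3 region at the wide locus held under all 10 alternatives. Scaling moved the median log2 fold change of all SMC3 gene sums from −0.11 to 0.53 with library totals and −0.83 with background scaling, and that of all RAD21 regions from −0.39 to 0.47 with background scaling.

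Summed log2 fold changes depended on the setting as follows, and the cause was not tested. With input-subtracted counts CTCF was −0.18, SMC3 0.82 and H3K4me1 −0.0033. With library totals RAD21 was 0.067, SMC3 1.101 and WAPL −0.088. With background scaling SMC3 was −0.28, H3K27ac 0.033 and H3K4me1 0.16. With DESeq2 SMC3 was 0.46, as before, but was called (adjusted p = 0.0435), as it was with library totals, with input-subtracted counts and within 100 kb. Within 100 kb NIPBL was 0.33, RAD21 0.88, SMC3 2.69, WAPL −0.12 and H3K4me1 0.16. Leaving out 1 library gave −0.047 to 0.24 for CTCF, −0.55 to −0.025 for RAD21, 0.25 to 0.64 for SMC3, −0.43 to −0.38 for WAPL and −0.0033 to 0.024 for H3K4me1.

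Regions called changed too. NIPBL had 0 with background scaling, DESeq2 or input-subtracted counts. RAD21 had 0 with background scaling, no filter or input-subtracted counts, and DESeq2 called 2 higher and 1 lower, against 0 higher and 2 lower with edgeR. WAPL had 9 with background scaling, 3 with DESeq2 and 2 with input-subtracted counts. DESeq2 gave 2 for H3K27ac, where 24 of the 36 regions had no adjusted p, and 7 for H3K4me1. Leaving out 1 library gave 0 to 12 for CTCF, 0 to 0 for NIPBL, 0 to 10 for RAD21, 1 to 7 for WAPL, 6 to 9 for H3K27ac and 10 to 14 for H3K4me1. RAD21 ATPneg regions with a peak numbered 1 with an overlap of 50% (2 in WT) and 9 with peaks of either replicate (5 in WT).

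Single regions turned sign with input-subtracted counts for CTCF at −5.4 kb (−0.18) and −25.0 kb (−0.048), WAPL at −14.4 kb (−0.98) and H3K27ac at +189.4 kb (0.024). With library totals NIPBL at +147.9 kb was −0.10 and H3K27ac at +189.4 kb 0.10. With background scaling H3K4me1 at +147.7 kb was −0.032. Leaving out 1 library gave −0.026 to 0.011 for H3K27ac at +189.4 kb and −0.0051 to 0.083 for H3K4me1 at +147.7 kb.

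Same-numbered libraries showed no shared deviation from their group means, with correlations from −0.207 to 0.0386. The labels do not say whether replicate numbers pair the samples, and with 1 difference per genotype this cannot exclude it. With the replicate block RAD21 had 0 regions called, and no other target's count moved by over 1.5 times. With 2 libraries a group and 268 to 795 reads over the Foxo1 regions of the shallow KO libraries, small differences were not detectable.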
